A study of Mus musculus with 9 samples.

Results

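The endothelins *Edn1*, *Edn2* and *Edn3*, the endothelin receptors *Ednra* and *Ednrb*, and the endothelin-converting enzyme *Ece1* were read on 9 Affymetrix mouse expression arrays of large intestine, 1 array per mouse. Members were the probe sets that the platform annotation pairs with 1 of these 6 genes alone. This gave 12 probe sets for 5 of the 6 genes, among 18193 genes with a probe set of their own: 1 for *Edn1*, 1 for *Edn2*, 4 for *Edn3*, 3 for *Ednrb* and 3 for *Ece1*. *Ednra* was not analysed here. A probe set was tested where its mean log2 signal over all arrays reached the median of all probe sets, a signal of 85.9, and 7 of the 12 passed: all of *Edn1* and *Edn2*, 2 of *Edn3*, 1 of *Ednrb* and 2 of *Ece1*.

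The groups were 3 *Winnie* mice, 3 *Eeyore* mice and 3 wild-type mice, all labelled as males of 8 wk. *Winnie* and *Eeyore* are strains from chemical mutagenesis, each with its own missense change in *Muc2*, which encodes the main mucin of intestinal mucus. In *Winnie* a cysteine is replaced by tyrosine, on C57BL/6. In *Eeyore* a serine is replaced by proline, on a background labelled as mixed C57BL/6 and NOD-SCID, so that allele and background cannot be told apart in that strain. The wild-type mice were C57BL/6. For each mouse, equal amounts of RNA from homogenised proximal and distal large intestine were pooled, so every signal is a mean over mucosa, muscle, nerve and vessel. In such bulk tissue, fewer cells of a type and less RNA per cell cannot be told apart.

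Array medians lay between 88.1 and 95.4 in *Winnie*, between 95.8 and 99.5 in *Eeyore* and between 119 and 129 in wild-type mice. The 3 wild-type arrays went against their label: *Xist*, transcribed from the inactive X chromosome, averaged 38.4 in *Winnie*, 83.9 in *Eeyore* and 7849 in wild-type mice, and the Y-linked *Eif2s3y* averaged 1291, 1259.7 and 17.6 in the same order. Sex and *Muc2* genotype therefore cannot be told apart in any comparison with wild-type mice below, whereas *Eeyore* against *Winnie* takes no mean from those arrays, which enter only its estimate of spread. *Muc2* itself had a signal of 32081 ± 5494 in *Winnie*, 35110.0 ± 2271 in *Eeyore* and 76999 ± 8135 in wild-type mice (SD, n = 3 each); since both alleles are missense, its level does not check the labels.

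Endothelins are short peptides made as longer precursors. A furin-type protease releases an inactive intermediate, and endothelin-converting enzymes such as *Ece1*, a membrane metalloprotease, cut this to the active peptide. The receptors couple to G proteins: *Ednra* binds *Edn1* and *Edn2* and contracts smooth muscle, whereas *Ednrb* binds all 3 peptides and has a further part in clearing them. In the gut, *Edn3* and *Ednrb* are best known from development, since neural crest cells need both to colonise the distal bowel and their loss leaves it without ganglia.

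The bases upstream of the genes whose signals were lower in both mutant strains, *Edn1*, *Edn2* and *Ece1*, are shown with those of *Edn3*, whose mean signals were higher in both, so that the letters before their starts can be compared. Each window is the 250 bases before the annotated start, on the plus strand of GRCm38.p6 from RefSeq, at chr13:42301226-42301475 for *Edn1*, chr4:120160956-120161205 for *Edn2*, chr4:137861987-137862236 for the first of 4 annotated starts of *Ece1* and chr2:174760369-174760618 for *Edn3*. Capitals mark matches to a set of 8 motifs.
Edn1: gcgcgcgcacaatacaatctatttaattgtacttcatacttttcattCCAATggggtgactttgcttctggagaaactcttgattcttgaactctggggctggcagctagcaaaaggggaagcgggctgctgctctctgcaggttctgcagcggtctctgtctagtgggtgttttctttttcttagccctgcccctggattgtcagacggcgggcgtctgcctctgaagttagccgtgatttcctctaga
Edn2: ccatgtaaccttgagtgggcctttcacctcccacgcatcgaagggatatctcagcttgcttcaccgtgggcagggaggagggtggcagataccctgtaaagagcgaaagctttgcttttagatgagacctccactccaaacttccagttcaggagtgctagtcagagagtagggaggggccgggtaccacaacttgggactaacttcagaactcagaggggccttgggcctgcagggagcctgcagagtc
Ece1: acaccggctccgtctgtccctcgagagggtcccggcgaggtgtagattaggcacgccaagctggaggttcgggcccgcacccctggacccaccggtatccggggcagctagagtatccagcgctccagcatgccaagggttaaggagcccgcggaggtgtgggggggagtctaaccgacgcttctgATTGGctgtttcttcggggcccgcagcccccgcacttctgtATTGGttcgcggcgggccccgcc
Edn3: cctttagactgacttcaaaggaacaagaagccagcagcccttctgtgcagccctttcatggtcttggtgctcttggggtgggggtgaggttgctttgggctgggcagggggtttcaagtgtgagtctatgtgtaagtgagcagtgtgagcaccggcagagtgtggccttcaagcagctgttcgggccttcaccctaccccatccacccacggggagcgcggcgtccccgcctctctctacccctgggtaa

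The motifs, chosen with these sequences in view and searched on both strands, were the TATA box as TATAAA, the GC box as GGGCGG, the GATA motif as AGATAA, the AP-1 site as TGACTCA or TGACTAA, the hypoxia response core as ACGTG, the CCAAT box, and the NF-kappaB and CArG motifs by name. *Edn1* holds 1 CCAAT and the first *Ece1* window holds 2, read on the other strand as ATTGG. The windows of *Edn2* and *Edn3* hold none of the 8. Of windows not shown, that of *Ednrb* holds CCAAT, and those of the other *Ece1* starts hold CCAAT, GC boxes or a hypoxia core that reads on both strands, motifs that 32.7% (GC box) and 16.6% (core) of all windows hold. CCAAT is common, with a match in 33.8% of 32851 such windows, and these matches are a description of letters only. Just past its annotated start, *Edn1* holds an ACGTG core, read as CACGT, and an AP-1 match, in capitals in these 30 bases at chr13:42301493-42301522.
Edn1 after the start: gctgCACGTtgcctgtgggTGACTAAtcac
In the first 50 bases after the start, 3.9% of the 32851 windows hold the core, 1.14% an AP-1 match and 0.0396% both. The pair was picked with the *Edn1* letters in view, so its share is a description only. A GATA match lies nearer the *Edn1* start, and 1.4% of the windows hold one. At the first *Ece1* start, a GC box spans the start and another lies at bases 30 to 35 after it.

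*Edn1*, a strong vasoconstrictor made by endothelium and by other cells, was lower in both mutant strains. Its signals were 449, 324 and 422 in the 3 *Winnie* mice, 265, 157 and 235 in the 3 *Eeyore* mice, and 1425, 1133 and 957 in the 3 wild-type mice. Every mutant mouse lay below every wild-type mouse, and every *Eeyore* mouse lay below every *Winnie* mouse. The means were 398 ± 65.8 in *Winnie*, 219 ± 55.4 in *Eeyore* and 1172 ± 237 in wild-type mice (SD, n = 3 each). On the log2 scale *Edn1* fell by 1.55 in *Winnie* (SE 0.23, limma adjusted p = 0.00103), which is 2.93-fold. In *Eeyore* it fell by 2.44 (SE 0.23, limma adjusted p = 3.37e-05), or 5.41-fold. Ordered from the most negative log2 fold change, *Edn1* stood at place 357 of 22519 tested probe sets in *Winnie* and at place 131 in *Eeyore*.

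*Edn2*, an endothelin made by cells of the intestinal epithelium in rodents, was lower in both strains, with like mean signals. It read 293, 131 and 130.2 in *Winnie*, 112, 248 and 183 in *Eeyore*, and 780.3, 605 and 502 in wild-type mice. Here too the mutant and wild-type ranges were apart, while the ranges of *Winnie* and *Eeyore* overlapped. *Winnie* mouse 1 and *Eeyore* mouse 2 were the highest of their groups. Means were 185 ± 93.5 in *Winnie*, 181 ± 68.3 in *Eeyore* and 629 ± 141 in wild-type mice (SD, n = 3 each). The log2 fold changes were -1.86 in *Winnie* (SE 0.36, limma adjusted p = 0.0044, 3.62-fold lower) and -1.85 in *Eeyore* (SE 0.36, limma adjusted p = 0.00303, 3.60-fold lower).

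*Edn3*, the ligand of enteric neural crest cells, had higher mean signals in both strains than in wild-type mice on all 4 probe sets, near the level at which these arrays lose precision. Of the 2 tested probe sets, 1438696_at read 91.6, 117 and 221 in *Winnie*, 171, 218 and 163 in *Eeyore*, and 111, 73.9 and 73.3 in wild-type mice. All *Eeyore* mice were above all wild-type mice, and *Winnie* overlapped with both groups. Its log2 fold change was 1.11 in *Eeyore* (SE 0.38, limma adjusted p = 0.044, 2.16-fold higher) and 0.66 in *Winnie* (SE 0.38, adjusted p = 0.233), where median centring gave 1.07 (adjusted p = 0.0424). This call in *Eeyore* held in 10 of 18 alternative fits. It was lost in the others, among them the fit with no filter (limma adjusted p = 0.105). Leaving out *Winnie* mouse 2 (adjusted p = 0.0522) or each *Eeyore* mouse in turn (0.0742, 0.133 and 0.0667) also lost it. So did leaving out wild-type mouse 2 or 3 (0.116 and 0.106). Mean log2 signal of 1438696_at was 6.40 in wild-type mice, 7.06 in *Winnie* and 7.51 in *Eeyore*, against a filter at 6.43. The probe set thus passed the filter through the mutant arrays.

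The brightest *Edn3* probe set, 1441924_x_at, read 228, 86.5 and 121 in *Winnie*, 214, 262 and 193 in *Eeyore*, and 59.0, 116 and 180.0 in wild-type mice. *Eeyore* again lay above wild-type without overlap, with a log2 difference of 1.05 (SE 0.45, limma adjusted p = 0.0972), and the difference in *Winnie* was 0.32 (SE 0.45, adjusted p = 0.643). In *Eeyore* that difference passed the threshold with quantile normalization (1.39, adjusted p = 0.0358), with median centring (1.37, 0.0301) and without wild-type mouse 3 (1.42, 0.0435). The dimmer 1421136_at was below the filter, at 110.1, 39.5 and 70.5 in *Winnie*, 109.7, 74.9 and 40.6 in *Eeyore*, and 6.85, 7.59 and 14.5 in wild-type mice. All wild-type values there, and the lowest *Winnie* and *Eeyore* values, lie under the floor of 41.2, the highest lower quartile of any array. With only the wild-type values raised to that floor, the geometric mean was 1.63-fold higher in *Winnie* and 1.68-fold higher in *Eeyore*. The size of the difference is therefore uncertain. The remaining probe set, 1441923_s_at, was below the filter, at 28.4 to 153 in *Winnie*, 56.9 to 117 in *Eeyore* and 8.69 to 103 in wild-type mice, and all groups overlapped.

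**Figure D1:**
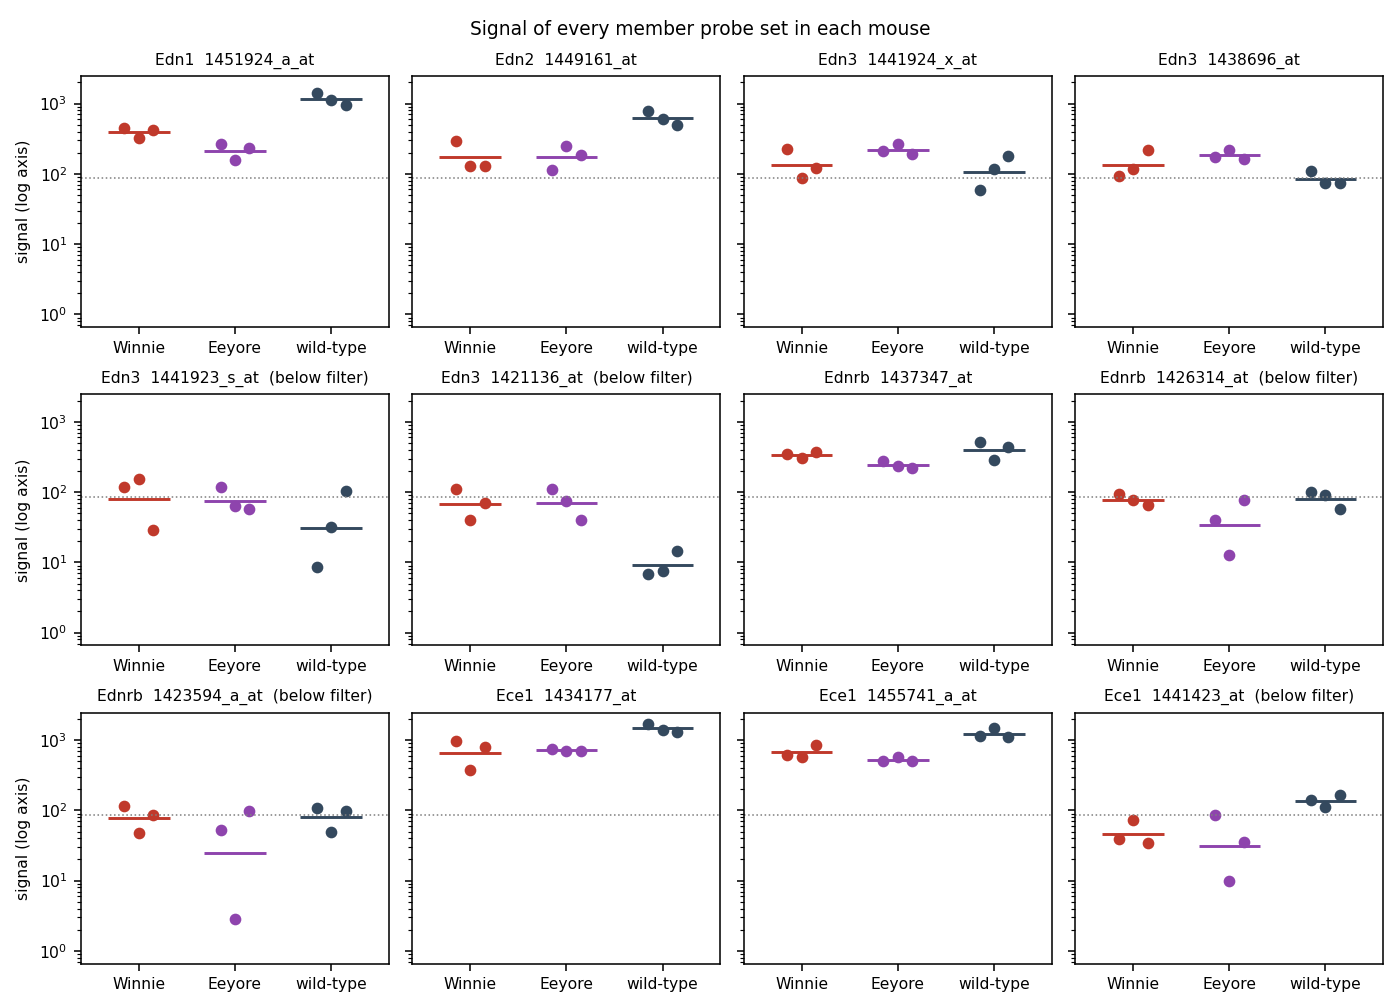
Signal of each endothelin, receptor and converting enzyme probe set by mouse (log axis), with *Winnie*, *Eeyore* and wild-type from left to right; points are mice, bars the geometric mean of 3, and the dotted line the filter signal of 85.9. *Edn1* and *Edn2* of all 6 mutant mice lie below all 3 wild-type mice. Both tested *Edn3* probe sets lie above the dotted line in every mutant mouse and on both sides of it in wild-type mice.

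*Ednrb*, the receptor for all 3 peptides, was called lower in *Eeyore* and was not called in *Winnie*. On its tested probe set it read 349, 305 and 371 in *Winnie*, 278, 237 and 218 in *Eeyore*, and 524, 283 and 442 in wild-type mice. *Winnie* overlapped with wild-type, and *Eeyore* lay below both other groups, with its highest mouse just under the lowest wild-type mouse. Mean signals were 342 ± 33.5 in *Winnie*, 244 ± 30.8 in *Eeyore* and 416 ± 123 in wild-type mice (SD, n = 3 each). *Ednrb* fell by 0.73 on the log2 scale in *Eeyore* (SE 0.24, limma adjusted p = 0.0362, 1.66-fold), and the log2 difference in *Winnie* was -0.24 (SE 0.24, adjusted p = 0.495). The *Eeyore* call held in 10 of 19 alternatives. Among others, it was lost after quantile normalization (adjusted p = 0.134), after median centring (0.189), and without *Eeyore* mouse 2 or 3 (0.0859 and 0.0949) or wild-type mouse 1 or 3 (0.139 and 0.101). With median centring the *Winnie* difference turned to 0.17. The other 2 *Ednrb* probe sets were below the filter, and their mutant and wild-type ranges overlapped. 1426314_at lay at 66.0 to 94.4 in *Winnie*, 12.7 to 77.7 in *Eeyore* and 57.9 to 99.5 in wild-type mice, and 1423594_a_at at 47.7 to 115, 2.80 to 96.6 and 48.5 to 109 in the same order.

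*Ece1*, which makes the active peptides, was lower in both strains on both tested probe sets. On 1434177_at it read 959, 379 and 802 in *Winnie*, 739, 709 and 706 in *Eeyore*, and 1693, 1402 and 1317 in wild-type mice. On 1455741_a_at it read 610.3, 573 and 849 in *Winnie*, 501, 566 and 502 in *Eeyore*, and 1125, 1503 and 1099 in wild-type mice. Mutant and wild-type mice did not overlap on either, and the *Eeyore* mice were close together while *Winnie* mouse 2 was low on 1434177_at.

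On 1434177_at *Ece1* fell by 1.14 in *Winnie* (SE 0.27, limma adjusted p = 0.0117, 2.20-fold) and fell by 1.03 in *Eeyore* (SE 0.27, limma adjusted p = 0.0144, 2.04-fold). Both calls were lost without wild-type mouse 1 (adjusted p = 0.0508 in *Winnie* and 0.057 in *Eeyore*). On 1455741_a_at it fell by 0.88 in *Winnie* (SE 0.18, limma adjusted p = 0.00594, 1.84-fold) and fell by 1.23 in *Eeyore* (SE 0.18, limma adjusted p = 0.000566, 2.35-fold), and the *Winnie* call was lost with median centring (adjusted p = 0.0729). The dim 1441423_at, below the filter, read 38.5, 71.8 and 34.3 in *Winnie*, 85.6, 9.87 and 35.2 in *Eeyore*, and 139, 113 and 164 in wild-type mice. There too every mutant mouse lay below every wild-type mouse.

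Counted over the 7 tested member probe sets, 4 fell and 0 rose in *Winnie*, where 21.5% of all tested probe sets were called, 11.7% as lower and 9.75% as higher. In *Eeyore* 5 fell and 1 rose, against 29.3% called in all, 17.1% as lower and 12.2% as higher. With quantile normalization or median centring the split in *Eeyore* was 4 lower and 2 higher. With no filter it was 4 lower and 0 higher. The count of higher members in *Eeyore* was also 0 when any 1 *Eeyore* mouse, *Winnie* mouse 2 or wild-type mouse 2 was left out. It stayed at 1 when any other mouse was left out. With median centring the split in *Winnie* was 3 lower and 1 higher. The 4 that fell in *Winnie*, those of *Edn1*, *Edn2* and *Ece1*, also fell in *Eeyore*, and both comparisons use the same 3 wild-type mice. Of all tested probe sets, 8.65% were called lower in both strains and 7.32% higher in both. Groups that do not overlap were common: 25.1% of all tested probe sets lay below wild-type and 17.1% above it in every *Winnie* mouse, and 26.9% and 18.2% in every *Eeyore* mouse. The median log2 fold change of the 7 was -0.88 in *Winnie* and -1.03 in *Eeyore*, against -0.09 in each over all tested probe sets. As a share of the wild-type mean of the same probe set, the brightest one of each gene, *Edn1* stood at 34.0% in *Winnie* and 18.7% in *Eeyore*, *Edn2* at 29.4% and 28.8%, *Ece1* at 48.5% and 48.8%, *Ednrb* at 82.1% and 58.6%, and *Edn3* at 123% and 189%.

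**Figure D2:**
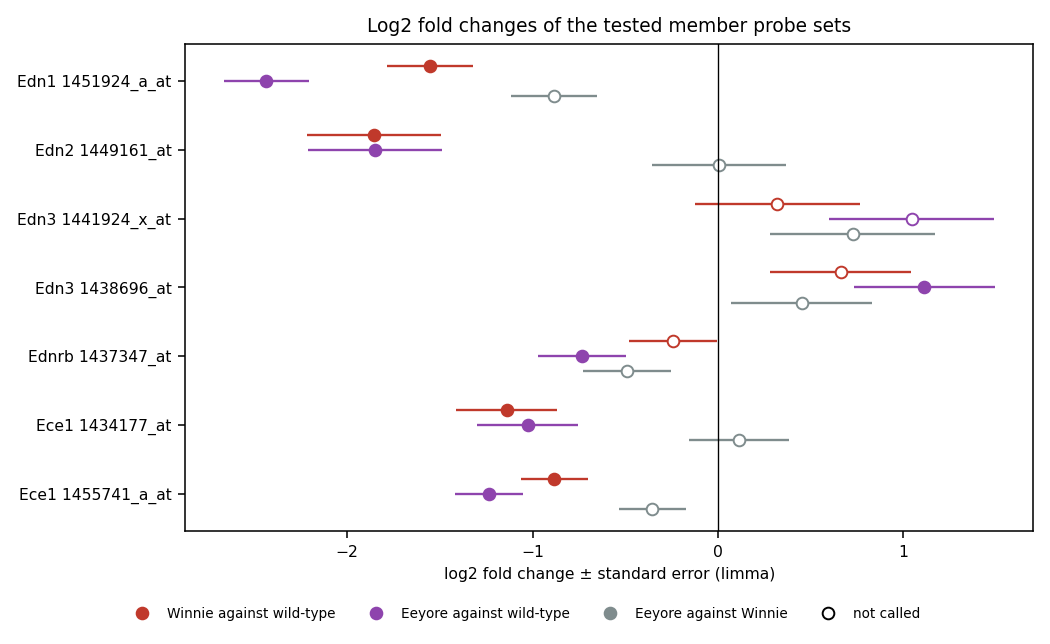
Log2 fold change of the 7 tested member probe sets in *Winnie* against wild-type, *Eeyore* against wild-type and *Eeyore* against *Winnie*. Bars are the standard error from limma. Filled points were called and open points were not. *Edn1*, *Edn2* and both *Ece1* probe sets are called lower in both strains, and no member is called between the strains on the deposited scaling.

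Whether the mutant strains differed from each other was tested directly. Of the 7 member probe sets 0 passed the limma threshold in *Eeyore* against *Winnie*, 1 had an unadjusted p under 0.05, and 2.30% of all tested probe sets were called, 1.07% as higher and 1.24% as lower. That 1 was *Edn1*, whose log2 difference was -0.88 (95% interval -1.39 to -0.38, unadjusted p = 0.0024, limma adjusted p = 0.0754). It passed the threshold without *Eeyore* mouse 1 (-1.04, adjusted p = 0.0386) and with median centring (-0.97, adjusted p = 0.0381). With the wild-type arrays left out of the fit altogether, its adjusted p was 0.139 and 0 of the 7 passed. *Edn2* had a difference of 0.01 (95% interval -0.78 to 0.80, adjusted p = 0.995).

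*Ednrb* differed by -0.49 (95% interval -1.004 to 0.03) and *Ece1* by -0.35 on 1455741_a_at (-0.75 to 0.04), and on both the *Eeyore* mice lay below all *Winnie* mice. The other *Ece1* probe set differed by 0.11 (-0.48 to 0.70). The *Edn3* differences were 0.73 (-0.24 to 1.70) on 1441924_x_at and 0.45 (-0.37 to 1.28) on 1438696_at. *Edn1*, *Ednrb* and *Ece1* 1455741_a_at were thus the 3 of 7 whose *Eeyore* mice all lay below the *Winnie* mice, a state that 10.1% of all tested probe sets shared, with 9.29% the other way round. With 3 mice against 3, an exact two-sided permutation test of any single value cannot go below p = 0.10.

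The signals of cell types that make or receive endothelins moved in the same comparisons. Summed over 13 smooth muscle markers, the signal was 93946 to 102846 in *Winnie*, 76605 to 85168 in *Eeyore* and 204566 to 209836 in wild-type mice. All 13 fell in both strains on the deposited scaling, and 12 fell in *Winnie* with quantile normalization or median centring. Means were thus 47.2% of wild-type in *Winnie* and 38.9% in *Eeyore*. The sum of 8 enteric neuron markers stood at 60.5% in *Winnie* and 40.9% in *Eeyore*, and of the 7 tested, 5 fell in *Winnie* and 7 in *Eeyore*. These counts were 4 and 6 with quantile normalization and 3 and 6 with median centring. On the deposited scaling 11.9% of all tested genes were called lower in *Winnie* and 16.6% in *Eeyore*.

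The 12 endothelial markers, from the cells that make most *Edn1* in vessels, summed to 1273 to 1712 in *Winnie*, 1433 to 1575 in *Eeyore* and 2341 to 2514 in wild-type mice. Of 8 tested endothelial markers 3 fell in each strain on the deposited scaling, and in *Winnie* 0 did with quantile normalization or median centring. The 10 epithelial markers moved the other way, at 120% of the wild-type sum in *Winnie*, with 3 higher, and 128% in *Eeyore*, with 6 higher. With median centring 9 of the 10 were higher in each strain. The endothelial sum stood at 60.0% of wild-type in *Winnie* and 62.0% in *Eeyore*. Of 7 tested fibroblast markers 3 fell in *Winnie* and 4 in *Eeyore*. Quantile normalization gave 4 in each, and median centring 1 and 3. Among 7 macrophage markers 2 rose in each strain and 1 fell in *Eeyore*. On the deposited scaling 11.9% of all tested genes were called lower and 11.3% higher in *Winnie*, and 16.6% and 14.0% in *Eeyore*. For 2 glial markers 0 passed limma, with 1 at an unadjusted p under 0.05 in *Winnie* and 0 in *Eeyore*. Of 2 tested mast cell markers, *Kit* fell in each strain. Its wild-type mean was 1043, against wild-type sums of 1203 to 1408 over all 8 listed markers. Whether the *Kit* signal came from mast cells was not tested. The mucosal mast cell proteases *Mcpt1* and *Mcpt2*, below the filter, had higher means, 105 in *Winnie*, 311 in *Eeyore* and 8.63 in wild-type mice for *Mcpt1*, and 175, 355 and 7.33 in the same order for *Mcpt2*. With no filter 2 of 8 mast cell markers rose and 1 fell in each strain. The part of these cell types in the endothelin results was not tested.

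**Figure D3:**
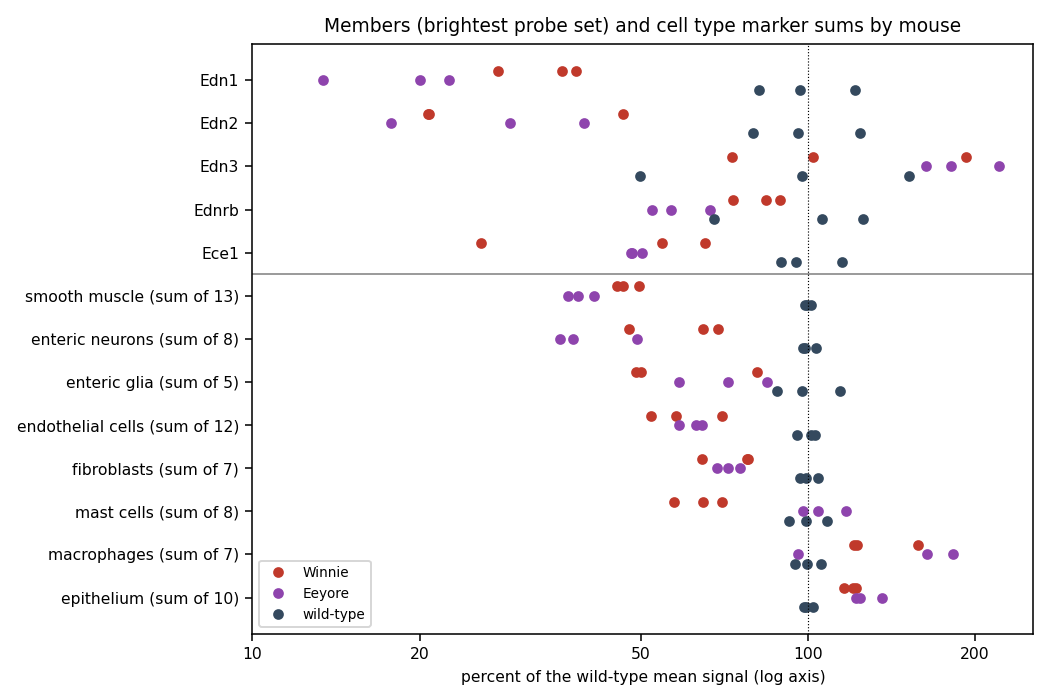
Signal of each *Winnie*, *Eeyore* and wild-type mouse as a percent of the wild-type mean (log axis, 1 point per mouse), for the brightest probe set of each member and for the summed cell type marker lists. *Edn1* and *Edn2* of all mutant mice lie below 100%, as do the smooth muscle, enteric neuron and endothelial sums, and the epithelial sums lie above it.

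The genes that act around the endothelins were read from 3 lists, each gene by its brightest probe set. The processing and degradation list held 9 genes besides *Ece1*, of which 5 were tested. On the deposited scaling, 1 fell and 0 rose in *Winnie*, and in *Eeyore* 0 were called, while of all tested genes 11.9% were called lower and 11.3% higher in *Winnie*, and 16.6% lower and 14.0% higher in *Eeyore*. In *Eeyore* 1 of the 5 had an unadjusted p under 0.05 in limma. With median centring 1 of the 5 rose in *Winnie* and 2 in *Eeyore*. The gene that fell in *Winnie* was *Ctsa*, a lysosomal carboxypeptidase that degrades endothelin, at 1878 ± 223 in *Winnie*, 2759 ± 94.3 in *Eeyore* and 2793 ± 211 in wild-type mice. Its log2 fold change was -0.58 in *Winnie* (limma adjusted p = 0.00507) and -0.02 in *Eeyore* (adjusted p = 0.935). Between the strains 1.29% of tested genes were called higher and 1.30% lower in *Eeyore*, *Ctsa* among the higher ones. *Ece2*, the second converting enzyme, had positive log2 differences that missed the threshold, 0.63 for *Winnie* (limma adjusted p = 0.073) and 0.51 for *Eeyore* (0.119).

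The receptor signalling list held 20 genes from the receptors' G proteins to their arrestins, and 16 were tested. In each strain 7 fell and 1 rose on the deposited scaling. There 11.9% of all tested genes were called lower and 11.3% higher in *Winnie*, and 16.6% and 14.0% in *Eeyore*. With median centring the split turned to 5 higher and 1 lower in *Winnie* and 4 of each in *Eeyore*. That scaling moves the median of all tested probe sets up by 0.41 and 0.33. The list's median log2 fold change was -0.32 in *Winnie* and -0.41 in *Eeyore*, against -0.05 and -0.04 over all tested genes. *Plcb1*, a phospholipase C that receptors of this kind switch on, read 240 ± 24.7 in *Winnie*, 228 ± 80.4 in *Eeyore* and 614 ± 83.4 in wild-type mice. It fell by 1.35 in *Winnie* (limma adjusted p = 0.00293) and fell by 1.48 in *Eeyore* (adjusted p = 0.00113).

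*Itpr2*, a calcium release channel downstream of phospholipase C, had log2 fold changes of -1.07 in *Winnie* and -1.43 in *Eeyore* (limma adjusted p = 0.0148 and 0.0022), with the *Winnie* call lost without wild-type mouse 1 (0.0623) and with quantile normalization (0.0619). *Prkca*, a protein kinase C, had -0.74 in *Winnie* (limma adjusted p = 0.0351) and -1.58 in *Eeyore* (adjusted p = 0.000455), but averaging its probe sets gave 0.027 in *Winnie*. That *Winnie* call was lost without *Winnie* mouse 2 or 3 (0.115 and 0.0699) and without wild-type mouse 1 or 2 (0.129 and 0.0887). *Plcb4*, a relative of *Plcb1*, had -0.54 in *Winnie* and -1.15 in *Eeyore* (limma adjusted p = 0.00781 and 5.81e-05). *Arrb1*, a receptor arrestin, had -0.64 in *Winnie* and -0.72 in *Eeyore* (0.0153 and 0.00619), with the *Winnie* call lost without *Winnie* mouse 3 or wild-type mouse 1 (0.0603 and 0.0675). The 1 gene that rose was *Rhoa*, a small GTPase of smooth muscle contraction, by 0.41 in *Winnie* and 0.38 in *Eeyore* (limma adjusted p = 0.0102 and 0.0109), but averaging its probe sets gave -0.44 in *Winnie* and -0.43 in *Eeyore*. Median centring ended the calls of *Ctsa*, *Itpr2*, *Prkca*, *Plcb4* and *Arrb1* in *Winnie* and of *Arrb1* in *Eeyore* (adjusted p = 0.0727 to 0.477). Averaging probe sets ended those of *Ctsa* in *Winnie* (0.542), of *Prkca* in *Eeyore* (0.338) and of *Plcb4* in *Winnie* and *Eeyore* (0.41 and 0.117).

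Among 10 partners of *Edn3* and *Ednrb* in development of the enteric nervous system, 6 were tested. On the deposited scaling 1 fell in each strain, while 11.9% of all tested genes were called lower in *Winnie* and 16.6% in *Eeyore*. In limma 4 of the 6 had an unadjusted p under 0.05 in *Winnie* and 2 in *Eeyore*. With median centring 0 of the 6 fell in either strain, and with quantile normalization 0 fell in *Eeyore*. The log2 fold changes of the 6 had medians of -0.81 for *Winnie* and -0.65 for *Eeyore*, against -0.05 and -0.04 over all tested genes. The partner *Gdnf* was below the filter and was not tested. Its highest signals were 50.5 in *Winnie* and 14.0 in *Eeyore*, both under its lowest wild-type signal of 63.6. *Zeb2*, a transcription factor of neural crest cells, fell by 1.14 in *Winnie* (limma adjusted p = 0.0371) and had -0.76 in *Eeyore* (adjusted p = 0.122). *Ret*, the receptor for glial cell line-derived factors, fell by 0.97 in *Eeyore* (adjusted p = 0.0494) and had -0.47 in *Winnie*, where its adjusted p was 0.344. The *Zeb2* call held in 13 of 19 alternatives and was lost, among others, without *Winnie* mouse 2 or 3 or wild-type mouse 1 (0.123, 0.0553 and 0.148) and with quantile normalization or median centring (0.062 and 0.0962). The *Ret* call held in 6 of 19. It was lost without any single *Eeyore* or wild-type mouse and without *Winnie* mouse 1 or 2 (0.0524 to 0.143), with quantile normalization (0.168), median centring (0.16) or no filter (0.122) and with only the groups compared (0.0601), and averaging its probe sets gave 0.015. In *Eeyore* against *Winnie* 0 of the 6 passed the limma threshold, and 0 had an unadjusted p under 0.05.

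**Figure D4:**
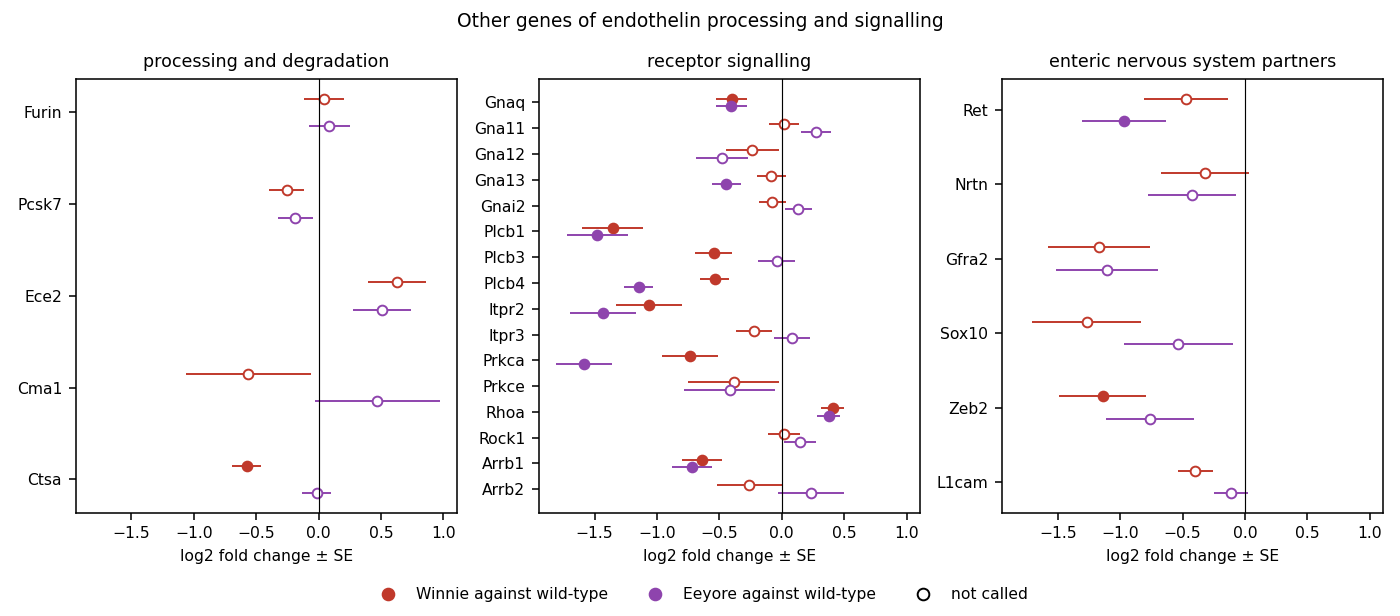
Log2 fold change of the tested genes of the 3 endothelin pathway lists in *Winnie* and in *Eeyore* against wild-type, on the deposited scaling; filled points were called and open points were not. Most receptor signalling genes that were called lie below 0 in both strains, *Rhoa* lies above it, and median centring turns the list's balance in *Winnie*.

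The genes whose signals ran closest to each member were named by Pearson's r of log2 signal over the 9 arrays, given as a description since the arrays fall into 3 groups and share their scaling. For *Edn1* these were *Pbx3* (r = 0.987), *Scg2* (0.986), *Cyp39a1* (0.984) and *Stum* (0.983). For *Edn2* they were *S1pr3* (0.976), *Kctd17* (0.975), *Ppp1r14a* (0.975) and *Aspg* (0.971), and for *Ece1* they were *Rab7b* (0.979), *Pcm1* (0.978), *Srpk2* (0.975) and *Crim1* (0.974). *Ednrb* ran closest to *Gdf2* (0.973), *Crebzf* (0.937), *Ing3* (0.935) and *Dnmt3a* (0.906). For *Edn3*, read on 1441924_x_at, the closest was *Adap1* (0.960), followed by *Nckap1l* (0.892), *Ccdc59* (0.883) and *Marchf10* (0.875). Taken over deviations from the group means, r of these genes ranged from 0.728 for *Cyp39a1* with *Edn1* to 0.990 for *Pcm1* with *Ece1*. It was 0.805 for *Scg2* with *Edn1* and 0.962 for *S1pr3* with *Edn2*. The genes were picked by r on the same arrays, so high values here follow in part from the pick.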

How the data were processed

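The authors deposited 1 table of linear signal intensity for 45101 probe sets on 9 arrays, scaled so that the mean of each array after trimming 2% at each end is 500. The algorithm behind the signals is not given in the sources used here. The deposited intensity was put on the log2 scale unchanged. Control probe sets were dropped, and 22519 of 45037 remained above the 50th percentile of mean log2 intensity. Probe sets were paired with genes through the platform annotation, with symbols updated to GRCm38.p6. Of the 45037, 34945 had 1 symbol, 932 several and 9160.0 none.

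A linear model with 1 mean per group was fitted to all 9 arrays in limma 3.58.1 (R 4.3.3), with moderated variances that follow intensity, and p-values were adjusted by Benjamini-Hochberg over all tested probe sets of a contrast, with a threshold of 0.05. Percentages of genes called use the brightest probe set of each of 11453 genes. The fit was tested on simulated data. Probe sets of 1 gene are not replicates, and 3 arrays per group limit the precision.

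All 12 probe sets of the members were named. From each pathway list, up to 4 called genes per strain with the largest change were named, and for each member the 4 genes with the highest correlation. Genes, lists and motifs were chosen with earlier results of these data known. Alternatives were other scalings, filters, variance models and an offset of 32, leaving out each mouse, and a block by mouse number. Raising signals to a floor was added after seeing the data.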

Additional observations from a re-analysis of the deposited data

Results flagged for a closer look

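None of the member probe sets differed between *Eeyore* and *Winnie* at the limma threshold, but 2 named pathway genes did. *Ctsa* was higher in *Eeyore* than in *Winnie* by 0.56 on the log2 scale (limma adjusted p = 0.025), and the call was lost without *Winnie* mouse 2 or 3, *Eeyore* mouse 2 or 3 or wild-type mouse 2 (adjusted p = 0.0508 to 0.103), with only the groups compared (0.0641), without the intensity trend (0.102) and in the mean over its probe sets (0.06, adjusted p = 0.952). *Plcb4* differed by -0.61 between *Eeyore* and *Winnie* (limma adjusted p = 0.0163), and the call was lost without *Winnie* mouse 3 or *Eeyore* mouse 3 (0.0889 and 0.0543), with only the groups compared (0.0641) and in the mean over its probe sets (-0.46, adjusted p = 0.677).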

How the results depend on the processing

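*Edn1* and *Edn2* stayed lower and past the threshold in both strains under every alternative that tested them (20 for *Edn1* and 19 for *Edn2* in each strain). *Edn1* adjusted p lay between 0.000548 and 0.00719 in *Winnie* and between 6.53e-06 and 0.000831 in *Eeyore*, and *Edn2* between 0.00173 and 0.0243 in *Winnie* and between 0.00137 and 0.0169 in *Eeyore*. The count of members called was 3 in *Eeyore* with the filter at the 75th percentile, since only 3 were then tested. The count for *Eeyore* against *Winnie* was 1, *Edn1*, with median centring. Leaving out single mice gave counts from 3 to 4 in *Winnie*, from 4 to 6 in *Eeyore* and from 0 to 1 between the strains.

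Mouse numbers were shared between groups, and 1 of 9 same-numbered pairs had a correlation of deviations above 0.1 (range -0.00821 to 0.164). Pairs with different numbers were not compared, so these values cannot tell whether mice of the same number share more than a number. With mouse number as a replicate block the counts were 4 in *Winnie*, 5 in *Eeyore*, where *Edn3* 1438696_at lost its call (adjusted p = 0.0641), and 1 between the strains, *Edn1* (adjusted p = 0.0422).

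Directions turned for small differences. *Ednrb* in *Winnie* was 0.17 with median centring. *Edn3* 1441924_x_at in *Winnie* ranged from -0.11 to 0.69 when single mice were left out. Between the strains, *Edn2* was -0.00187 with quantile normalization, -0.078 with median centring, -0.030 as the ratio of group mean signals and from -0.26 to 0.39 without single mice. *Ece1* 1434177_at was -0.27 as the mean over probe sets and from -0.29 to 0.38 without single mice. The mean over probe sets turned *Prkca* in *Winnie* (0.027), *Rhoa* in *Winnie* (-0.44), in *Eeyore* (-0.43) and between the strains (0.00236), and *Ret* in *Eeyore* (0.015) and between the strains (0.21). *Ctsa* in *Eeyore* was 0.31 with median centring and from -0.077 to 0.030 without single mice. Between the strains, *Zeb2* ranged from -0.049 to 0.67 and *Plcb1* from -0.40 to 0.059 without single mice. The cause was not tested. Over all single values and alternatives with a test, 817 kept their direction and side of the threshold, 70 lost a call, 11 gained one and 23 turned. Signal over background limits *Edn3*, with 2 of 4 probe sets under the filter signal, and *Ednrb*, with 2 of 3.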
